A study of Arabidopsis thaliana with 9 samples.

Results

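Light resets the plant circadian clock, and 10 genes that act beside or downstream of its central loop are described here in shoots of ascorbate-deficient *Arabidopsis thaliana*. They were taken by gene identifier, with earlier results of these data known, and are 10 of the 28642 genes counted: *RVE8* (AT3G09600), *RVE4* (AT5G02840), *RVE1* (AT5G17300), *RVE2* (AT5G37260), *LNK1* (AT5G64170), *LNK2* (AT3G54500), *COR27* (AT5G42900), *COR28* (AT4G33980), *GRP7* (AT2G21660), and *GRP8* (AT4G39260). RNA was sequenced from shoots of 2-week-old wild-type (WT, Col-0), *vtc2-4*, and *vtc3-3* seedlings, with 3 libraries of each genotype and 9 in all. Seedlings of all genotypes had been raised on sucrose-containing medium with 16 h of light per day, were kept dark for 2 d, and were then returned for 6 h to light of 100 µmol photons m-2 s-1, so no comparison here is between dark and light. VTC2 is the GDP-L-galactose phosphorylase of ascorbate synthesis, VTC3 is a protein with kinase and phosphatase domains that affects the ascorbate pool, and each mutant was 1 T-DNA insertion line, so that effects of the gene and of other changes in that line cannot be told apart. In bulk shoots, fewer cells of a type and less RNA per cell cannot be told apart either.

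The clock of Arabidopsis is a set of transcription factors that repress or activate each other at different times of day. RVE proteins are single-MYB factors related to CCA1 and LHY. RVE8 and RVE4 activate genes that carry the evening element, a short promoter motif, and do so together with the coactivators LNK1 and LNK2, whereas RVE1 and RVE2 belong to another branch of the family. COR27 and COR28 are small nuclear proteins, induced by cold and light, that repress clock genes. GRP7 and GRP8 are RNA-binding proteins whose transcripts cycle as clock outputs, and each lowers its own transcript and that of the other by shifting splicing to a site inside the intron, which gives a form that is degraded.

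The evening element is shown first because it is the motif through which RVE8 and RVE4 act. The letters AAAATATCT were searched on both strands of the 500 bases upstream of each annotated gene start in the TAIR10.1 genome. They occurred in 3 of the 10 genes, against 4.44% of all 27443 upstream windows of that length. *GRP7* had 3 copies, *COR27* had 2, and *GRP8* had 1, and they lay between 12 and 76 bases before the TAIR10.1 gene start. That start is at 9266557, 17199910, and 18275216, in the same order of genes. The deposited table puts it further in, at 9266393, 17199793, and 18275079, so the copies lie further from the starts of the table. The stretches holding all of these copies are given 5′ to 3′ on the strand of the gene, which is the minus strand in each case, with the element in capitals. A copy on the other strand reads as AGATATTTT. They cover chr2:9266565-9266648 for *GRP7*, chr5:17199911-17199964 for *COR27*, and chr4:18275217-18275243 for *GRP8*.
GRP7: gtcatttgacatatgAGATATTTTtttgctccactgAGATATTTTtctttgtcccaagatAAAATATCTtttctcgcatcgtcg
COR27: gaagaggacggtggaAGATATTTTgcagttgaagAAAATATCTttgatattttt
GRP8: aagatattcttacaaAGATATTTTttg
Of the other motifs searched, the CCA1-binding site AAAAATCT was found in 12.5% of all windows and in 2 of the genes, *RVE2* and *COR28*. The G-box CACGTG, which bHLH and bZIP factors bind, was found in 9.35% of windows and again in 2 of the genes, *RVE1* and *RVE2*. None of the 3 motifs was found in the windows of *RVE8*, *RVE4*, *LNK1*, and *LNK2*. These matches are letters in a window and carry no measure of binding.

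**Figure D1:**
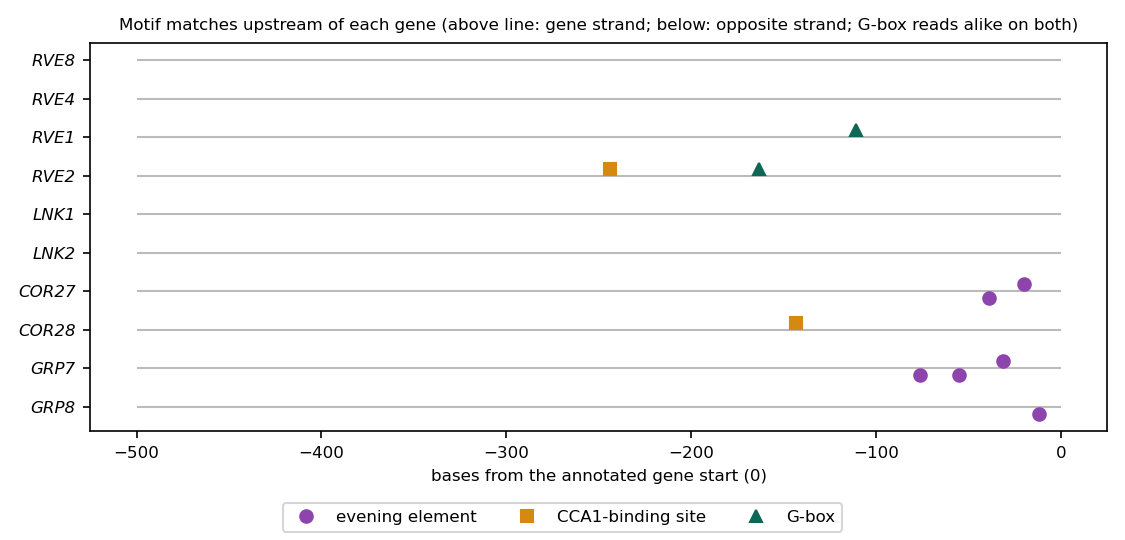
Positions of motif matches in the 500 bases before the annotated start of each gene. The x axis gives bases from the start, each line is 1 gene, and symbols above and below a line are matches on the strand of the gene and on the opposite strand. The evening elements of *GRP7*, *COR27*, and *GRP8* lie within 76 bases of the TAIR10.1 start.

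Between 4399733 and 7567492 reads per library were counted on genes. The targeted genes matched the labels, since *VTC2* had 2842 to 4500 reads in WT and 37 to 51 in *vtc2-4*, and *VTC3* had 75 to 110 in WT and 12 to 33 in *vtc3-3*. Shoot identity was checked with 5 photosynthesis genes, which summed to CPM values (reads scaled by TMM to a common library size) of 21210 to 23710 in 8 libraries and of 11250 in WT replicate 1, whereas 9 root markers had 0 to 7 reads in all per library, 5 of them with no read in any library. WT replicate 1 stood apart in other ways too. Its mean correlation with the other libraries across genes was 0.907, against 0.969 to 0.973, its deviations from the other libraries correlated with exon length at r = −0.554 (−0.029 to 0.156 in the others), and 1.62% of its reads fell in introns, against 1.12% to 1.26%. It was the highest of the 9 libraries for 7 of the 10 genes and the lowest for *GRP7* and *GRP8*. Comparisons of the 10 genes are therefore given with and without it.

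In the coordinates of the deposited table, whose build is not given in the sources used here, the MYB-related genes lay as follows, with *RVE8* at chr3:2946406-2948995 (11 exons), *RVE4* at chr5:648704-651972 (13 exons), *RVE1* at chr5:5690227-5692902 (6 exons), and *RVE2* at chr5:14751344-14753088 (5 exons). The coactivator genes were *LNK1* at chr5:25672466-25676746 (8 exons) and *LNK2* at chr3:20175370-20179027 (18 exons). The remaining genes were *COR27* at chr5:17197641-17199793 (9 exons), *COR28* at chr4:16282696-16285059 (8 exons), *GRP7* at chr2:9265249-9266393 (4 exons), and *GRP8* at chr4:18273899-18275079 (9 exons). The exons listed for a gene can overlap one another. Fold changes below rest on total gene reads, which include intron reads.

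Per exon length, the output genes were by far the most abundant of the 10. The median over the 9 libraries was 1070 RPKM (reads per kilobase of exon, scaled to the reads of the library) for *GRP7* and 374 RPKM for *GRP8*. The coactivators followed, with 58.2 RPKM for *LNK1* and 47.0 RPKM for *LNK2*. *RVE4* had 36.9 RPKM, *RVE2* 28.6 RPKM, and *RVE8* 13.9 RPKM. *COR27* had 11.4 RPKM. *RVE1*, with 4.72 RPKM, and *COR28*, with 4.46 RPKM, were at the bottom of the order. The ranges over libraries of neighbours in this order overlapped from *LNK1* (49.6 to 67.7 RPKM) and *LNK2* (41.2 to 61.3 RPKM) down to *COR27*. They also overlapped between *RVE1* and *COR28*. No such overlap was seen between *GRP7*, *GRP8*, and *LNK1*, or between *COR27* and *RVE1*. Compared within each library, *LNK1* lay above *LNK2*, *RVE2* above *RVE8*, and *RVE8* above *COR27* every time. The order of *LNK2* and *RVE4*, of *RVE4* and *RVE2*, and of *RVE1* and *COR28* differed between libraries. All reads of the 10 genes mapped to 1 place only. *RVE1*, *LNK1*, and *LNK2* overlap genes on the opposite strand, by 203 bases with AT5G17305, by 245 bases with AT5G64160, and by 93 bases with AT3G54490, respectively, and *LNK2* also overlaps the long non-coding RNA gene AT3G08405 by 266 bases, and whether the counting used strand is not given in the sources used here, so reads there may belong to either gene.

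Differences between genotypes were tested with edgeR's quasi-likelihood test, which was fitted to all 9 libraries over the 17388 genes with enough reads, and p-values were adjusted over all of these genes. None of the 10 genes passed an adjusted p of 0.05 in any comparison, where 0.598% of all genes passed in *vtc2-4* against WT, 0.023% in *vtc3-3* against WT, and 0.351% in *vtc3-3* against *vtc2-4*. At an unadjusted p under 0.05 the counts were 3 of 10 (*RVE8*, *LNK2*, and *GRP7*), 0, and 1 (*RVE8*), against 9.90%, 6.23%, and 5.10% of all genes. DESeq2 also called 0 of the 10 at an adjusted p of 0.05. Once WT replicate 1 was left out, the same test called 2 of the 10 in *vtc2-4* against WT (*RVE2* and *GRP7*, both higher), where 6.05% of all genes passed, and 0 in *vtc3-3* against WT, where 0.681% passed. In the direct comparison of the mutants it called 2 (*RVE8* and *LNK1*, both higher in *vtc3-3*), where 6.76% passed. Unadjusted p-values under 0.05 were then found for 6, 3, and 6 of the 10 genes, against 17.8%, 8.87%, and 19.0% of all genes. The mutant comparisons with WT share the same WT libraries and are given side by side. The 3 libraries of 1 group lay wholly above or below those of the other for 4 of the 10 genes in *vtc2-4* against WT (16.6% of all genes), for 2 in *vtc3-3* against WT (12.1%), and for 4 in *vtc3-3* against *vtc2-4* (23.5%). These counts were, without WT replicate 1, 6 (35.1% of all genes) and 4 (25.3%) for the comparisons with WT.

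**Figure D2:**
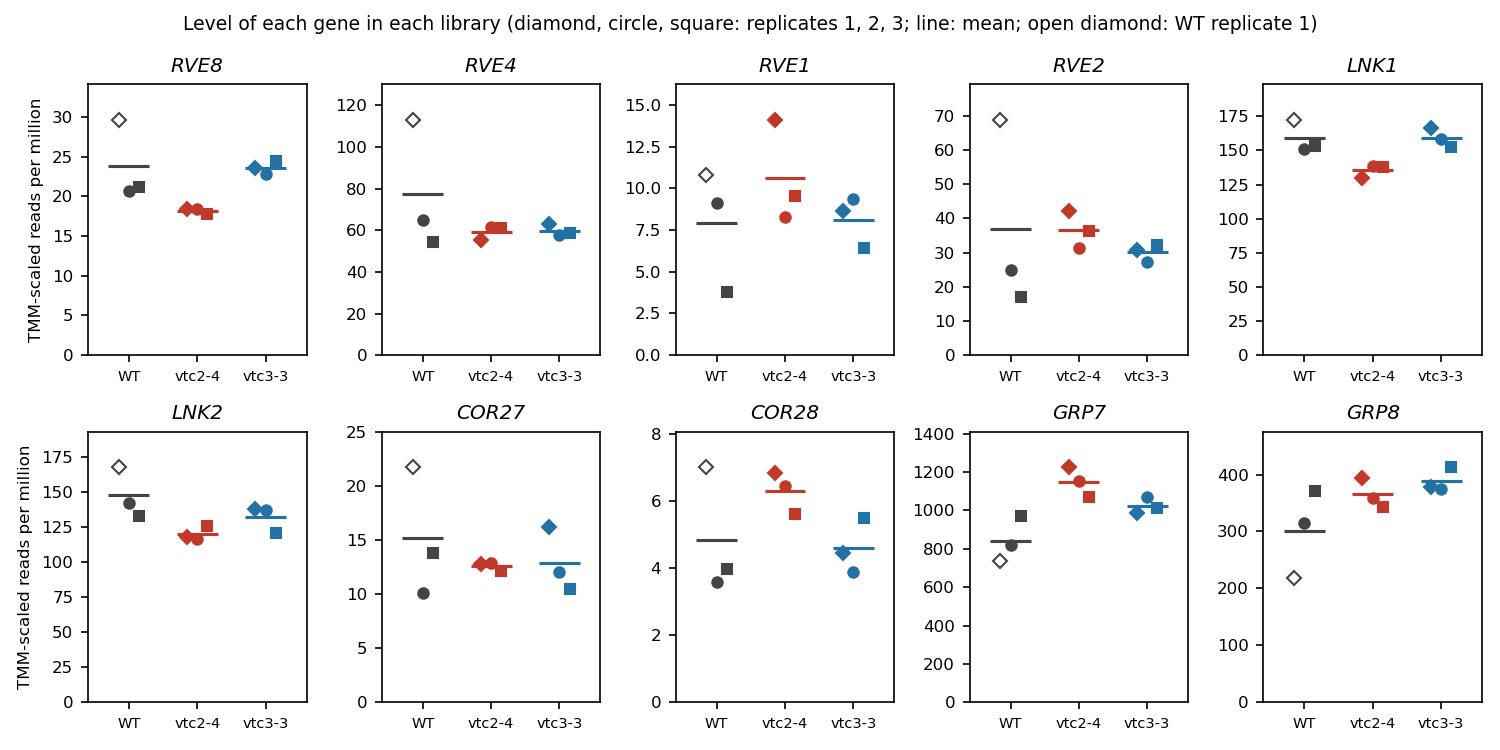
Normalized read counts (CPM, y axis, from 0) of the 10 genes in every library, by genotype. Symbols are libraries and lines are means of 3 libraries. WT replicate 1, the open diamond, is the highest library for 7 genes and the lowest for *GRP7* and *GRP8*.

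*RVE8*, the afternoon activator, was lowest in *vtc2-4*. Its level in CPM was 29.7, 20.7, and 21.2 in WT replicates 1 to 3. It was 18.4, 18.4, and 17.7 CPM in *vtc2-4* and 23.6, 22.8, and 24.4 CPM in *vtc3-3*. All *vtc2-4* libraries thus lay below all WT and all *vtc3-3* libraries, and the *vtc3-3* libraries lay above 2 of the 3 WT libraries. The log2 fold change in *vtc2-4* was −0.39 (standard error 0.16, adjusted p = 0.453, edgeR) with all libraries and −0.21 (adjusted p = 0.383) without WT replicate 1. In *vtc3-3* against WT it was −0.016 (adjusted p = 0.964) and 0.17 (adjusted p = 0.732). Between the mutants, *vtc3-3* was higher by 0.38 on the log2 scale in both fits, with an adjusted p of 0.867 when WT replicate 1 took part in the estimate of the spread and 0.0255 when it did not.

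*RVE4*, the closest relative of *RVE8* among the 10 genes, was nearly level between the mutants. It had 113, 65.0, and 54.2 CPM in WT, 55.5, 61.7, and 61.0 CPM in *vtc2-4*, and 63.1, 57.6, and 58.9 CPM in *vtc3-3*. The groups overlapped in every comparison, and WT replicate 1 was 1.90 times the mean of the other WT libraries. Its log2 fold change was −0.38 in *vtc2-4* and −0.37 in *vtc3-3* with all libraries, and 0.0022 (95% interval −0.18 to 0.19) and 0.019 (−0.17 to 0.21) without WT replicate 1. The mutants differed from each other by 0.012 (−0.51 to 0.53) on the log2 scale. The ratio of *RVE8* to *RVE4*, taken per exon length and chosen after the values had been seen, was 0.415 to 0.456 in *vtc3-3*, 0.315 to 0.360 in *vtc2-4*, and 0.291 to 0.425 in WT, so that the mutants did not overlap each other and WT overlapped with both.

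*RVE2*, which alters clock rhythms when overexpressed, was the gene most changed by the choice of libraries. WT replicate 1 had 68.8 CPM, against 24.8 and 17.1 CPM in the other WT libraries, 3.28 times their mean. The mutants lay between, with 42.3, 31.3, and 36.5 CPM in *vtc2-4* and 30.7, 27.2, and 32.2 CPM in *vtc3-3*. Against WT replicates 2 and 3 alone, all 6 mutant libraries were higher. With all libraries the log2 fold change in *vtc2-4* was −0.011 (standard error 0.41, adjusted p = 0.991, edgeR). Without WT replicate 1 it was 0.82 (standard error 0.15, adjusted p = 0.00126), and the rise then passed the test. In *vtc3-3* the values were −0.30 (adjusted p = 0.751) and 0.53 (adjusted p = 0.165). The mutants overlapped, at −0.29 (adjusted p = 0.195 without WT replicate 1) for *vtc3-3* against *vtc2-4*.

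*RVE1*, which connects the clock to auxin synthesis and growth, had few reads (22 to 95 per library). Its level was 10.8, 9.14, and 3.80 CPM in WT, 14.1, 8.28, and 9.51 CPM in *vtc2-4*, and 8.62, 9.34, and 6.39 CPM in *vtc3-3*. The groups overlapped throughout. Its log2 fold change in *vtc2-4* was 0.43 (95% interval −0.35 to 1.21) with all libraries and 0.74 (0.15 to 1.34, adjusted p = 0.153) without WT replicate 1. In *vtc3-3* it was 0.055 (−0.75 to 0.86) and 0.38 (−0.26 to 1.02). For *vtc3-3* against *vtc2-4* it was −0.38 (−1.15 to 0.40) and −0.36 (−0.85 to 0.13). The G-boxes of *RVE1* and *RVE2*, in capitals on the strand of each gene (minus, TAIR10.1, chr5:5693083-5693118 and chr5:14753231-14753266), are shown because these genes were the ones among the 10 to hold this motif.
RVE1: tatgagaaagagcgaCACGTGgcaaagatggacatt
RVE2: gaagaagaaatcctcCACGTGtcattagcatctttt

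The coactivator *LNK1* followed *RVE8*, with which its protein acts, in being lowest in *vtc2-4*. It had 172, 151, and 153 CPM in WT, 130, 139, and 138 CPM in *vtc2-4*, and 166, 159, and 152 CPM in *vtc3-3*. All *vtc2-4* libraries lay below all others, while *vtc3-3* lay within the WT range. The log2 fold change in *vtc2-4* against WT was −0.23 (standard error 0.11, adjusted p = 0.51, edgeR) with all libraries and −0.17 (adjusted p = 0.137) without WT replicate 1. Between the mutants, *LNK1* was 0.23 higher in *vtc3-3* with all libraries (adjusted p = 1) and 0.24 higher without WT replicate 1 (standard error 0.055, adjusted p = 0.0106), which is a fold of 1.18. In *vtc3-3* against WT it was 0.0022 (95% interval −0.24 to 0.25) and 0.069 (−0.062 to 0.20).

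*LNK2*, its paralog, had 168, 142, and 133 CPM in WT, 118, 117, and 126 CPM in *vtc2-4*, and 138, 137, and 121 CPM in *vtc3-3*. Its *vtc2-4* libraries again lay below all WT libraries but overlapped with *vtc3-3*. The log2 fold change in *vtc2-4* was −0.29 (adjusted p = 0.485) with all libraries and −0.19 (adjusted p = 0.127) without WT replicate 1, and in *vtc3-3* it was −0.16 and −0.050 (adjusted p = 0.908). The mutants differed by 0.14 (95% interval −0.14 to 0.41 with all libraries, and 0.011 to 0.27 without WT replicate 1, where the adjusted p was 0.216).

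**Figure D3:**
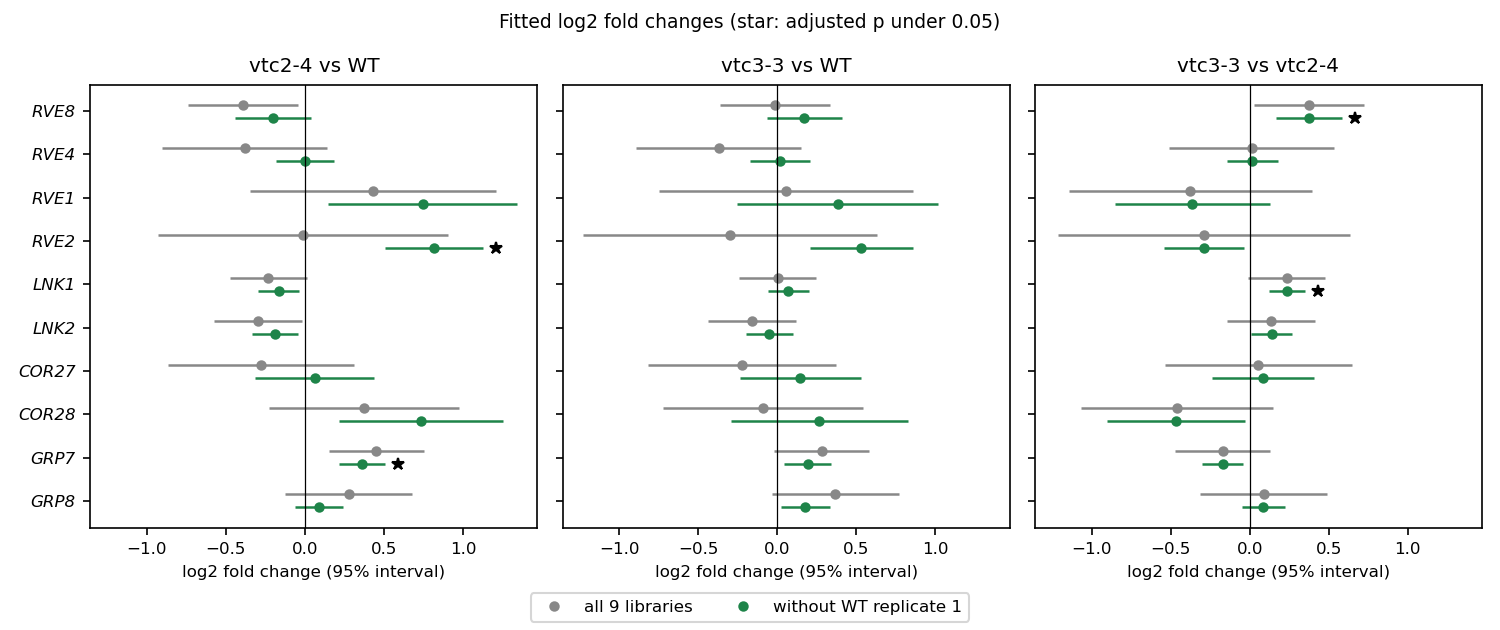
Fitted log2 fold changes (x axis) of the 10 genes with 95% intervals in the 3 comparisons, from all 9 libraries (grey) and without WT replicate 1 (green). Stars mark an adjusted p under 0.05, which *RVE2* and *GRP7* reached in *vtc2-4* and *RVE8* and *LNK1* between the mutants, each without that library.

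*COR27* and *COR28*, which repress clock genes, were weakly expressed. *COR27* had 21.8, 10.1, and 13.8 CPM in WT, 12.8, 12.9, and 12.1 CPM in *vtc2-4*, and 16.2, 12.1, and 10.5 CPM in *vtc3-3*, with overlap in every comparison. Its log2 fold change in *vtc2-4* was −0.28 with all libraries and 0.062 (95% interval −0.32 to 0.44) without WT replicate 1, and in *vtc3-3* −0.22 and 0.14 (−0.24 to 0.53). *COR28* had 18 to 46 reads per library, and 7.01, 3.58, and 3.97 CPM in WT, 6.83, 6.45, and 5.62 CPM in *vtc2-4*, and 4.44, 3.89, and 5.48 CPM in *vtc3-3*. The *vtc2-4* libraries lay above all *vtc3-3* libraries and above WT replicates 2 and 3, but not above WT replicate 1. The log2 fold change of *COR28* in *vtc2-4* was 0.37 (adjusted p = 0.583) with all libraries and 0.73 (standard error 0.25, adjusted p = 0.0957) without WT replicate 1. In *vtc3-3* against WT it was −0.089 (adjusted p = 0.889) and 0.27 (adjusted p = 0.856). For *vtc3-3* against *vtc2-4* it was −0.46 (95% interval −1.07 to 0.15) and −0.47 (−0.90 to −0.031, adjusted p = 0.222). Per exon length, *COR27* exceeded *COR28* by 1.88 to 2.25 times in *vtc2-4* and by 3.05 to 3.92 times in WT, whereas *vtc3-3* spanned 2.13 to 4.07 times. This ratio was chosen after the values had been seen and is a description.

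*GRP7*, the clock-controlled RNA-binding protein gene, was higher in *vtc2-4* than in WT. It had 736, 820, and 969 CPM in WT, 1226, 1154, and 1070 CPM in *vtc2-4*, and 989, 1068, and 1011 CPM in *vtc3-3*. The 3 genotypes did not overlap, with WT lowest, *vtc3-3* between, and *vtc2-4* highest. The log2 fold change in *vtc2-4* was 0.45 (standard error 0.13, adjusted p = 0.282, edgeR) with all libraries and 0.36 (standard error 0.071, adjusted p = 0.00252) without WT replicate 1, a fold of 1.29. In *vtc3-3* it was 0.28 (adjusted p = 0.625) and 0.19 (adjusted p = 0.359), and for *vtc3-3* against *vtc2-4* −0.17 in both fits (adjusted p = 0.123 without WT replicate 1).

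*GRP8*, the paralog of *GRP7*, differed less from WT than *GRP7* in *vtc2-4* in both fits. In *vtc3-3* it differed more than *GRP7* with all libraries (0.37 against 0.28), but not without WT replicate 1 (0.18 against 0.19). It had 218, 314, and 371 CPM in WT, 394, 358, and 344 CPM in *vtc2-4*, and 378, 375, and 413 CPM in *vtc3-3*, so that *vtc3-3* lay above all WT libraries and *vtc2-4* overlapped with WT. The log2 fold change in *vtc2-4* was 0.28 (adjusted p = 0.561) with all libraries and 0.090 (95% interval −0.063 to 0.24) without WT replicate 1, and in *vtc3-3* 0.37 (adjusted p = 0.625) and 0.18 (adjusted p = 0.46). The ratio of *GRP7* to *GRP8* per exon length was 3.29 to 3.41 in *vtc2-4* and 2.59 to 3.00 in *vtc3-3*. In WT it was 3.55 in replicate 1 and 2.76 and 2.71 in the others, so the higher ratio of *vtc2-4* was shared with the library that stood apart.

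The splicing of *GRP7* and *GRP8* was looked at through the reads in introns, since the degraded splice form that these proteins favour retains part of the intron. When the listed exons of each gene are merged, 1 intron is left, of 309 bases in *GRP7* (chr2:9265894-9266202) and of 283 bases in *GRP8* (chr4:18274568-18274850), on the minus strand of TAIR10.1. Its ends are shown because the genes are nearly alike there, with the GT that starts and the AG that ends each intron in capitals and the exon in lower case beside it.
GRP7 start: gttattgattccaagGTctgttacacgccg
GRP8 start: gttatcgattctaagGTctgttacacgaga
GRP7 end: ttatttggataacAGatcattaacgatcgt
GRP8 end: tttgtttgtttacAGatcattaacgaccgc
Reads per base in these introns were 27.0% to 47.0% of those in exons for *GRP7* and 27.0% to 47.2% for *GRP8*, against at most 22.0% for the other 8 genes. The intron share of *GRP7* was 14.8%, 11.3%, and 11.9% in WT, 9.69%, 9.07%, and 9.96% in *vtc2-4*, and 10.6%, 10.9%, and 11.4% in *vtc3-3*. All *vtc2-4* libraries lay below all others. The difference between *vtc2-4* and WT was −3.09 percentage points with all libraries and −2.01 without WT replicate 1, and that between *vtc3-3* and *vtc2-4* was 1.40. The two-sided exact permutation test gave p = 0.1 for each with all libraries, the smallest that 3 against 3 libraries allow, and 0.75 after adjustment over the 30 tests of intron shares. For *GRP8* the shares were 12.9%, 9.73%, and 8.78% in WT, 8.32%, 7.83%, and 8.68% in *vtc2-4*, and 8.33%, 9.23%, and 10.2% in *vtc3-3*. The *vtc2-4* libraries lay below all WT libraries, by −2.21 points on average with all libraries (exact permutation p = 0.1, adjusted p = 0.75) and −0.978 without WT replicate 1. Groups without overlap were not confined to these genes. *COR28*, with 18 to 46 reads per library, had a share 6.87 points higher in *vtc3-3* than in *vtc2-4* (exact permutation p = 0.1, adjusted p = 0.75). How often intron shares of all genes do not overlap was not counted. The intron reads of *GRP7* and *GRP8* do not tell which splice form they came from.

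**Figure D4:**
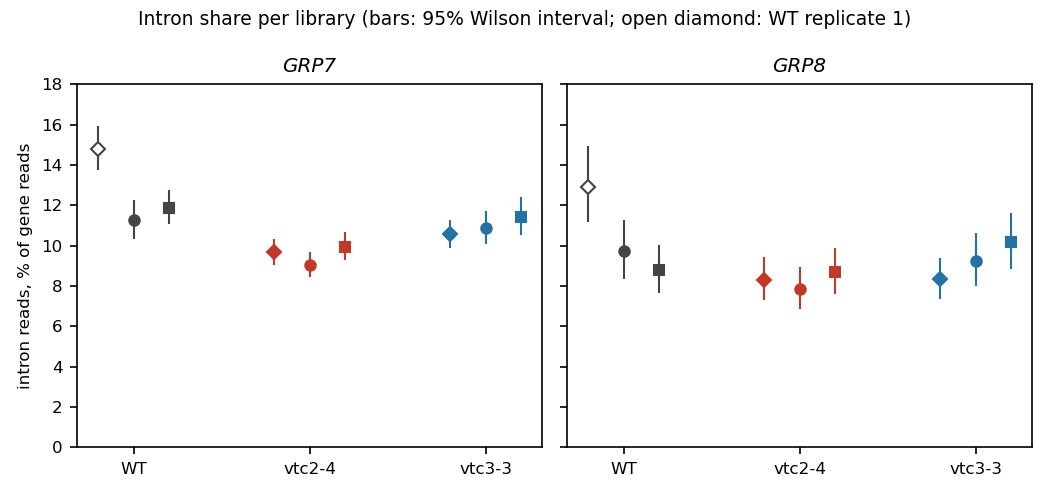
Share of the reads of *GRP7* and *GRP8* that fell in introns (y axis, percent, from 0) in each library by genotype, with 95% Wilson intervals, which cover counting error only. WT replicate 1 has the highest share for both genes, and the *vtc2-4* libraries of *GRP7* lie between 9.07% and 9.96%, below all others.

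The nearest relatives outside the 10 genes, *RVE3*, *RVE5*, *RVE6*, *RVE7*, *LNK3*, and *LNK4* were examined next. With all libraries, 0 of the 6 were called in any comparison, and 1 in each had an unadjusted p under 0.05, against 9.90%, 6.23%, and 5.10% of all genes in *vtc2-4* against WT, *vtc3-3* against WT, and *vtc3-3* against *vtc2-4*. In that fit all 6 had log2 fold changes below 0 in both comparisons with WT, with medians of −0.44 in *vtc2-4* and −0.30 in *vtc3-3* (−0.0097 and −0.0029 for all genes). *RVE3*, which belongs to the RVE8 branch, was weakly expressed, at 3.41 to 7.95 CPM over the libraries. Without WT replicate 1, *RVE3* fell in *vtc2-4* with a log2 fold change of −0.91 (SE 0.22, adjusted p = 0.0173, edgeR) and was 0.71 higher in *vtc3-3* than in *vtc2-4* (adjusted p = 0.0391). The other 5 lay between −0.13 and 0.067 in *vtc2-4* in that fit, and the median of the 6 was −0.061, against 0.0064 for all genes. In *vtc3-3* the 6 lay between −0.25 (*LNK4*) and 0.032 (*RVE5*), and none was called. The shares of all genes called without WT replicate 1 were 6.05%, 0.681%, and 6.76% in the comparisons in that order.

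In the central loop, where 16 of 17 genes had enough reads (*BOA* did not), 0 were called with all libraries, and 6, 1, and 5 had an unadjusted p under 0.05 in the 3 comparisons in that order, to be read against the same shares of all genes. Without WT replicate 1, 6.05%, 0.681%, and 6.76% of all genes were called in the 3 comparisons. In *vtc2-4*, 5 of the 16 were called in that fit. The afternoon repressor *PRR5* rose by 0.65 on the log2 scale (adjusted p = 0.000779), the *CCA1* repressor *CHE* by 0.51 (adjusted p = 0.00113), and the evening complex factor *LUX* by 0.44 (adjusted p = 0.0425). The morning factor *CCA1* fell by 0.48 (adjusted p = 0.00164) and the morning repressor *PRR9* fell by 0.55 (adjusted p = 0.000901). The ends of the list were *LHY*, at −0.62 (adjusted p = 0.0913), and *PRR5*. None was called in *vtc3-3* against WT, where the values ran from −0.15 (*PRR9*) to 0.35 (*FKF1*). Between the mutants 5 were called, with *CCA1* (0.56) and *PRR9* (0.39) higher in *vtc3-3* and *PRR5* (−0.47), *CHE* (−0.42), and *ELF3* (−0.24) lower. The median of the 16 was 0.15 in *vtc2-4*, 0.041 in *vtc3-3*, and −0.087 between the mutants, against 0.0064, 0.0054, and 0.0004 for all genes. With all libraries these medians were 0.19, 0.12, and −0.087.

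Of 12 other output genes, 0 were called with all libraries, and 5, 1, and 2 had an unadjusted p under 0.05 (9.90%, 6.23%, and 5.10% of all genes). The calls that follow stand beside 6.05%, 0.681%, and 6.76% of all genes called without WT replicate 1. When WT replicate 1 was left out, *PIF4* (0.42, adjusted p = 0.00199) and *PIF5* (0.30, adjusted p = 0.0139), which promote growth in darkness, rose in *vtc2-4*, and the catalase gene *CAT2* (−0.39), the floral repressor *CDF3* (−0.55), and *COL1* (−0.75), a relative of the flowering regulator *CO*, fell. The highest value in *vtc2-4* was that of the floral repressor *CDF5* (0.50, adjusted p = 0.221). In *vtc3-3* against WT *COL1* fell (−0.49, adjusted p = 0.0322), and *CDF2* had the highest value (0.25, adjusted p = 0.862). Between the mutants, *CDF3* was higher in *vtc3-3* (0.54), and *PIF4* (−0.41), *PIF5* (−0.22), and *CAT3* (−0.21) were lower. The medians of the 12 were 0.19, 0.022, and −0.15, and 0.31, 0.10, and −0.16 with all libraries.

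The cold-regulated genes were examined because *COR27* and *COR28* are cold-induced, and 8 of 9 had enough reads (*CBF1* did not). With all libraries 0 were called, and 6, 0, and 6 of the 8 had an unadjusted p under 0.05, beside the same shares of all genes. Leaving out WT replicate 1, the shares of all genes called were 6.05%, 0.681%, and 6.76%. In the fit without WT replicate 1, *CBF3* (−0.92, adjusted p = 0.0113), a factor that switches on cold genes, and its targets *COR15A* (−0.65, adjusted p = 9.55e-05) and *RD29A* (−0.32, adjusted p = 0.0106) fell in *vtc2-4*, *COR47* rose in *vtc3-3* (0.33, adjusted p = 0.0286), and 7 of the 8 were higher in *vtc3-3* than in *vtc2-4*, namely *COR47* (0.42), *KIN2* (0.45), *COR15B* (0.51), *RD29A* (0.55), *CBF3* (0.67), *COR15A* (0.77), and *KIN1* (1.09). *CBF2*, at −1.18 between the mutants and 1.68 in *vtc2-4*, was not called (adjusted p = 0.0957 and 0.0589) and had at most 2.38 CPM in any library. In *vtc3-3* against WT the ends of the list were *CBF3* (−0.25, adjusted p = 0.797) and *CBF2* (0.50, adjusted p = 0.881). The medians of the 8 were −0.26, 0.29, and 0.53 in that fit, and −0.74, −0.080, and 0.53 with all libraries, so that the median in *vtc3-3* against WT changed sign. Without WT replicate 1, *COR27* differed between the mutants by 0.083 (95% interval −0.24 to 0.41) and *COR28* by −0.47 (−0.90 to −0.031), and whether they differ from the list was not tested. All 33 calls made in these 4 lists without WT replicate 1 had the same sign with all libraries, where none was called. The fits share every library but that one, and the 17 calls between the mutants compare the same libraries in both. The shared signs are therefore no separate support.

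**Figure D5:**
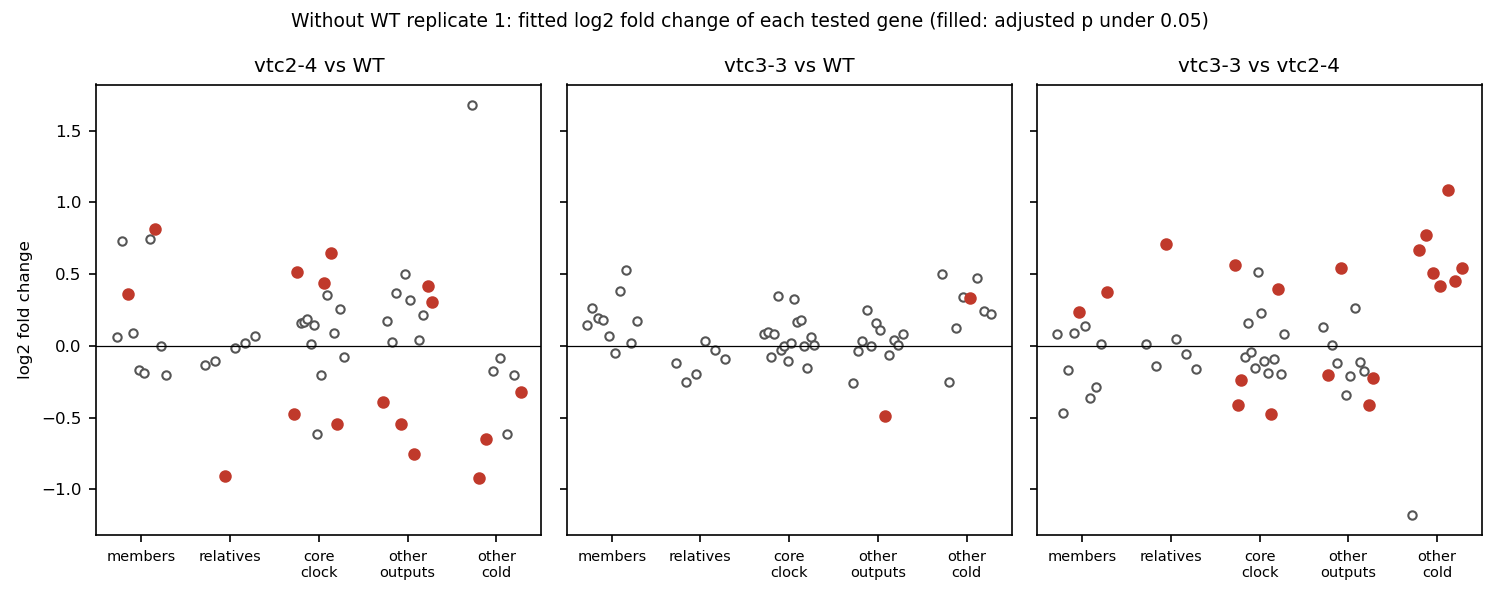
Fitted log2 fold changes (y axis) without WT replicate 1 for the 10 genes, their relatives, and the tested genes of the central clock, other clock outputs, and other cold-regulated genes, in the 3 comparisons. Filled points have an adjusted p under 0.05, of which the 10 genes have 2 in *vtc2-4*, 0 in *vtc3-3*, and 2 between the mutants.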

How the data were processed

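RNA-seq was performed by the authors on triplicate biological samples of shoots, with libraries made by the TruSeq RNA kit v2, MiSeq sequencing, and mapping and counting in CLC Genomics Workbench. The genome build, annotation, mapping settings, and use of strand are not given in the sources used here. The deposited counts are raw reads on each gene as tallied by the authors, which equalled exon plus intron reads for all 28642 genes, and the deposited RPKM values were made by the authors from exon reads, exon length, and total gene reads. Exon length and gene position are annotation scores as deposited by the authors, with starts counted from 0. Of 171 per-library columns 94 were not used, and 19 columns of the authors' own comparisons, which hold fold changes and p-values, were not used either. Samples were grouped by the labels.

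Total gene reads, as counts, were scaled by TMM and fitted with the quasi-likelihood test of edgeR 4.0.16 in R 4.3.3, with all 9 libraries and genotype as the only term. Genes were filtered with filterByExpr (17388 tested, 17631 without WT replicate 1), with Benjamini-Hochberg adjustment. The test was checked on simulated counts for 17388 genes, with *vtc2-4* against WT changed for 200 of them. It called 47 of 47 genes changed 0.25-fold, 48 of 48 changed 4-fold, 29 of 55 changed 0.5-fold, and 31 of 50 changed 2-fold, and 8 unchanged genes. The changed genes were drawn from those with higher mean counts, which leaves out *COR28*. Each gene had the same spread in all simulated libraries, so none stood apart as WT replicate 1 does. The check therefore does not show how the test performs with such a library, at low counts, or for changes under 2-fold. P-values measure only the spread between these samples. CPM values without WT replicate 1 are those of the scaling with all libraries. Intron shares were compared by exact permutation tests over libraries (scipy 1.17.1). The genome sequence and gene starts of TAIR10.1 were used for names and upstream windows. It matched 28009 of the 28642 identifiers, and 99.8% of the starts of matched genes lay within 2000 bases of those in the table. The region start of the table is the lower coordinate, which is where a gene on the minus strand ends. The tolerance is also wider than the upstream windows. This share therefore does not show how well the upstream windows fit the table.

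The genes, the lists, and the tests were chosen with earlier results of these data known. The genes named were all 10, *VTC2* and *VTC3*, the 6 relatives, and, from the other lists, any gene past the adjusted threshold in any comparison with all libraries or without WT replicate 1 and the ends of a list. The alternatives tried were DESeq2 1.42.0, upper-quartile scaling, library size alone, other filters on low counts, only the 2 genotypes compared, a replicate block, exon reads, uniquely mapped reads, limma 3.58.1 on log2 RPKM with 0.1 or 1 added, a correction for exon length per library (lowess, span 0.3), voom with library quality weights, and each library left out in turn. Depth of 4399733 to 7567492 reads per library leaves genes such as *COR28*, with as few as 18 reads (in WT replicate 2), with wide counting error.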

Additional observations from a re-analysis of the deposited data

Results flagged for a closer look

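Without WT replicate 1, *RVE8* was 0.38 higher on the log2 scale in *vtc3-3* than in *vtc2-4* (0.3758 before rounding), and *LNK1* was 0.24 higher (0.2361 before rounding). Both were picked out because the effects of the mutants differed under the same contrast by a test of the difference, with adjusted p = 0.0255 and 0.0106 in edgeR. All 3 *vtc2-4* libraries lay below, and all 3 *vtc3-3* libraries above, the mean of the 2 remaining WT libraries. For *LNK1* the lowest *vtc3-3* library, at 152.3 CPM, was level with that mean (152.0 CPM) and below WT replicate 3 (153.2 CPM). In *vtc3-3* against WT neither gene was called in that fit, at 0.17 for *RVE8* (adjusted p = 0.732, edgeR) and 0.069 for *LNK1* (adjusted p = 0.833). With WT replicate 1 included, the *vtc3-3* libraries lay on both sides of the WT mean for both genes. With all 9 libraries neither difference between the mutants passed the test, with adjusted p = 0.867 and 1, at nearly the same sizes.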

How the results depend on the processing

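With all 9 libraries none of the 10 genes was called in any comparison, and 104, 4, and 61 of all genes were called in *vtc2-4* against WT, *vtc3-3* against WT, and *vtc3-3* against *vtc2-4*, the order used below. Leaving out each of the 9 libraries in turn gave 32 to 1066, 1 to 120, and 8 to 1191 genes, with the highest of each without WT replicate 1, and 0 to 2, 0, and 0 to 2 of the 10 genes, where the 2 also came only without that library. Without any of the other 8 libraries the ranges for all genes were 32 to 70, 1 to 4, and 8 to 61. DESeq2 called 284, 20, and 132 genes, only the 2 genotypes compared 34, 0, and 1167, removal of the exon-length trend 210, 5, and 112, and quality weights 945, 113, and 1105. In the last comparison limma on log2 RPKM called 24 genes with 0.1 added and 33 with 1 added. Quality weights called 2, 0, and 2 of the 10 genes, and only the 2 genotypes compared called 2 of them in the last comparison. Without WT replicate 1 the relatives had 1, 0, and 1 calls, the central clock 5, 0, and 5, the other outputs 5, 1, and 4, and the cold-regulated genes 3, 1, and 7, against 0 in each with all libraries. That fit called 6.05%, 0.681%, and 6.76% of all genes. Of the 660 alternative values for the log2 fold change of 1 of the 10 genes, 611 kept their direction and side of the threshold. A further 8 kept the direction and passed it, and 41 changed direction. All 210 alternative differences in intron share moved by less than 1 SD, the larger of the 2 groups with all libraries. WT replicate 1 widens this yardstick, as the SD of *GRP8* in WT was 2.18 points with it and 0.673 without. The difference of *GRP8* between *vtc2-4* and WT moved from −2.21 to −0.978 points without that library and still counted as unmoved.

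The changes of direction follow, as log2 fold changes. In *vtc2-4* against WT, *RVE2* was 0.0025 without a filter, 0.14 with the replicate block, 0.23 and 0.22 with limma on log2 RPKM with 0.1 and 1 added, 0.28 with the exon-length trend removed, and 0.76 with quality weights, where *COR27* was 0.090. With each library left out, *RVE2* ran from −0.36 to 0.82, *RVE4* from −0.59 to 0.0022, and *COR27* from −0.49 to 0.062. In *vtc3-3* against WT, *LNK1* was −0.00068 with DESeq2, −0.00060 with only the 2 genotypes compared, and −0.0032 on exon reads. With the exon-length trend removed, *RVE8* was 0.028, *RVE1* −0.0053, *RVE2* 0.0041, *LNK1* −0.15, and *COR28* 0.066. With quality weights, *RVE8* was 0.16, *RVE2* 0.48, *COR27* 0.16, and *COR28* 0.24. With each library left out, *RVE8* ran from −0.10 to 0.17, *RVE4* from −0.57 to 0.019, *RVE1* from −0.29 to 0.38, *RVE2* from −0.65 to 0.53, *LNK1* from −0.031 to 0.069, *COR27* from −0.44 to 0.14, and *COR28* from −0.26 to 0.27. In *vtc3-3* against *vtc2-4*, *RVE4* was −0.0021 with the replicate block and −0.0087 with the trend removed, and ran from −0.034 to 0.040 with each library left out, where *COR27* ran from −0.16 to 0.18. The cause of these changes was not tested.

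Whether same-numbered samples were handled together is not given in the sources used here. Same-numbered libraries of different genotypes correlated in their deviations from the genotype means at −0.020 to 0.093, mostly above 0. Those with different numbers correlated at −0.096 to 0.075, mostly below 0. Whether the numbers mark a shared source was not tested. A replicate block gave 70, 4, and 51 genes and called none of the 10. Depth limits *COR28* and *RVE1*, which had 18 to 95 reads per library, so that their fold changes carry wide intervals.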
